A study of Bos taurus with 8 samples.

Results

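Chromosomes 18, 19 and 25 of cattle were examined as 1 Mb bins of MIRA-Seq reads, and the same bins on the other 26 autosomes were set beside them. The members were all 3Kb windows on these chromosomes, namely 21999 windows on chromosome 18, 21351 on chromosome 19 and 14301 on chromosome 25, or 57651 of the 902984 windows of the UMD v3.1 genome. Each window was placed in a 1 Mb bin by its start. Of the 175 bins formed, 173 were complete (at least 300 windows): 66 on chromosome 18, 64 on chromosome 19 and 43 on chromosome 25, beside 2328 complete bins on the other autosomes. For each bin, the share of windows carrying a gene name and the summed reads, scaled to the reads of the library as CPM (reads in the bin for every 1000000 reads in windows), were recorded. No level or count entered the choice of the windows.

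The DNA came from dermal fibroblasts of 4 Holstein (dairy) and 4 Angus (beef) heifers. Skin of the shoulder was sampled at 19 months of age, 1 culture and 1 library were made per animal, and the libraries are called Holstein 1 to 4 and Angus 1 to 4. All cultures of both breeds were at passage 5, in medium with fetal bovine serum, and were left untreated. Cultured cells of 1 passage stand in for skin, and their labelled cell type was not tested, since the reads are of DNA. The cultures came from separate animals, so p-values rest on the spread between animals, cultures and library preparations together. Values given per library are in the order 1 to 4.

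In MIRA-Seq, sonicated DNA is incubated with methyl-binding domain proteins, and the fragments they hold, those rich in methylated CpG sites, are sequenced. In mammals most CpG sites in gene bodies and between genes are methylated, whereas CpG islands, which mark the promoters of many genes, are usually free of methylation. Chromosomes that are rich in genes are commonly also rich in CpG, so they offer such an assay more sites. Reads in a window therefore depend on the number of CpG sites in it, the share of these that is methylated, the efficiency of the pull-down and the copy number of the DNA. These cannot be told apart here, because CpG sites were not counted and no input library was analysed.

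The libraries held 18691111 to 35525554 reads in windows, and 72.5 to 86.7% of these lay on autosomes. A window with 3 reads, the upper limit that a count of 0 allows, stood at 0.0844 to 0.161 CPM, a floor that covers counting error only. Holstein 1 and Angus 3 stood apart in how concentrated their reads were. They had 62.3 and 63.9% of their autosomal reads in the 1% of windows with most reads, against 41.6 to 51.6% in the other 6 libraries. Results that rest on them are also given without them, an alternative that was chosen after seeing the data.

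The label of the chromosomes was checked first. By named genes per Mb, chromosome 18 (20.5, with 1355 genes), chromosome 19 (19.9, with 1275 genes) and chromosome 25 (17.0, with 728 genes) were the 3 densest of the 29 autosomes. By the share of windows with a gene name, chromosome 19 (54.9%) and chromosome 25 (51.4%) still led. Chromosome 18 came sixth with 45.9%, behind chromosome 22 (48.1%), chromosome 26 (46.2%) and chromosome 28 (46.0%). Chromosome 18 thus carries many genes, but these cover less of it, and 27.3% of its bins had a gene name in under 25% of their windows, against 9.38% of the bins of chromosome 19 and 14.0% of those of chromosome 25.

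A typical bin on these chromosomes held about double the reads of a typical bin elsewhere, in both breeds. The median bin of the 3 chromosomes held 202, 322, 293 and 326 CPM in the Holstein libraries and 280, 285, 172 and 273 CPM in the Angus libraries. The median bin of the other autosomes held 93.5, 176, 142 and 158 CPM in Holstein and 163, 138, 82.7 and 124 CPM in Angus. Every library was thus higher on the 3 chromosomes than elsewhere, while Holstein 1 and Angus 3 were the lowest libraries in both. The ratio of the medians was between 1.72 and 2.21, with a geometric mean of 2.02-fold (8 of 8 libraries, exact two-sided sign-flip permutation p = 0.00781, the smallest p that 8 libraries allow). All libraries share the same windows, so this test, here and below, measures only how far the libraries agree. It does not measure the spread between chromosomes.

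Ranked by the median bin, the 3 chromosomes were also the first 3 of the 29 autosomes. By the mean of bins they ranked lower, with rank 5 for chromosome 25, rank 8 for chromosome 19 and rank 12 for chromosome 18. The mean over libraries of the median bin was 320 ± 60.9 CPM (SD, n = 8) on chromosome 25, 258 ± 51.5 CPM on chromosome 19 and 253 ± 48.8 CPM on chromosome 18. The next was chromosome 27 with 204 ± 41.3 CPM. Chromosome 25 ranked first in all 8 libraries, and chromosomes 18 and 19 shared ranks 2 and 3, with 18 ahead in Holstein 1 and Holstein 3 and 19 ahead in the other 6 libraries. The order of 18 and 19 was therefore not settled by the spread between libraries.

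**Figure D1:**
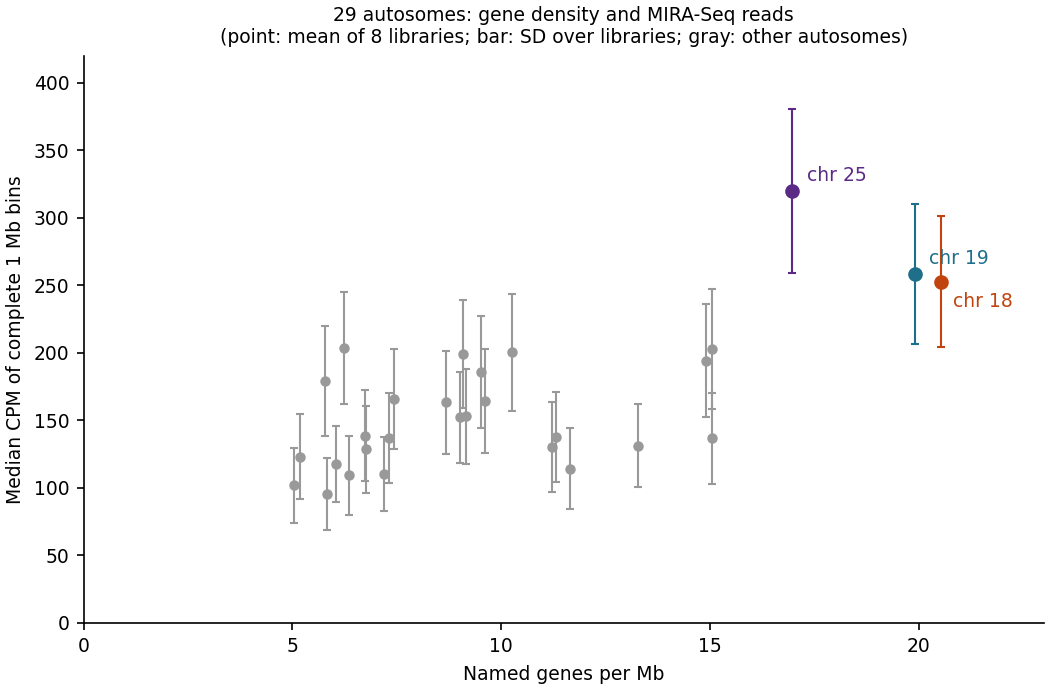
Named genes per Mb (x axis) and the median CPM of complete 1 Mb bins (y axis) for each of the 29 autosomes. Points are means of 8 libraries and bars are SDs over libraries; chromosome 25 lies highest at 320 CPM, chromosomes 19 and 18 follow at 258 and 253 CPM, and every other autosome (gray) lies at or below 204 CPM.

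The mean of the bins gave a different picture, because the other autosomes hold windows with very many reads. By the mean, the 3 chromosomes stood at 1.11-fold of the other autosomes, with 6 of 8 libraries above 1, and the difference did not pass the exact sign-flip permutation test (p = 0.0859). The ratios ran from 0.827 in Angus 3 and 0.982 in Holstein 1, the only ones below 1, to 1.26 in Holstein 4. Without these 2 libraries, a choice made after seeing the data, the ratio was 1.19-fold, and no test is given because they were left out for lying below 1.

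The chromosomes differed among themselves by this measure. Chromosome 25 was at 1.48-fold of the other autosomes by the mean, in 8 of 8 libraries (exact sign-flip permutation test, adjusted p = 0.0234 over 3 chromosomes), with a range of 1.11 to 1.72. Chromosome 19 was at 1.04-fold (6 of 8 libraries, adjusted p = 0.5 by the permutation test) and chromosome 18 at 0.940-fold (2 of 8 libraries, adjusted p = 0.5 by the permutation test). By the median of bins, the ratios were 2.40 for chromosome 25, 1.94 for chromosome 19 and 1.90 for chromosome 18, each in 8 of 8 libraries (exact permutation test, adjusted p = 0.00781).

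The gap between the measures narrowed when the windows with most reads were left out. Of the 837 autosomal windows that make up the top 0.1% by mean CPM, 10 lay on the 3 chromosomes (3 on chromosome 18, 1 on chromosome 19 and 6 on chromosome 25) and 827 on the others. These windows took 2.15% of the reads of the 3 chromosomes and 35.8% of the reads of the other autosomes. Without them the mean of the bins was 1.72-fold of the other autosomes for the 3 chromosomes together. It was 1.46-, 1.63- and 2.25-fold for chromosomes 18, 19 and 25, in 8 of 8 libraries each. The windows left out were chosen by the reads that are compared, and 827 of the 837 lay on the other autosomes. Leaving them out raises the ratio by itself, so no test is given. Ranked by the mean without these windows, chromosome 25 had rank 1 and chromosome 27 rank 2, with 408 ± 20.3 CPM. Chromosomes 19 and 18 had ranks 3 and 4, with 334 ± 59.6 and 299 ± 53.6 CPM. Chromosome 27 had the lowest share of windows with a gene name of the 29 autosomes (28.9%).

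**Figure D2:**
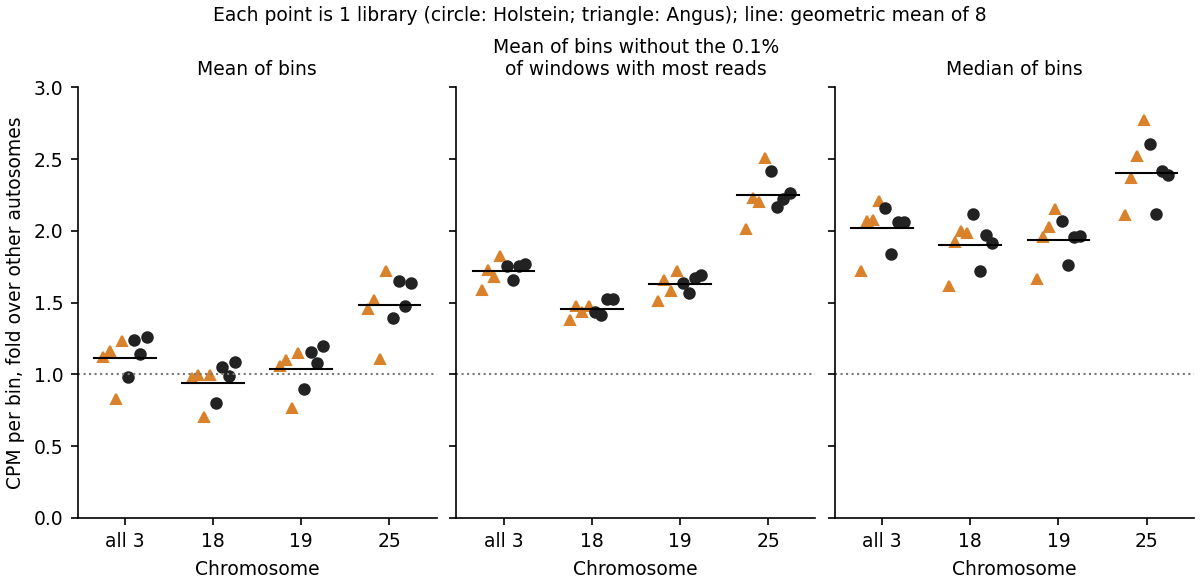
CPM per 1 Mb bin as a fold of the other 26 autosomes (y axis) for the 3 chromosomes together and for each (x axis), by the mean of bins, the mean without the 0.1% of windows with most reads, and the median of bins. Each point is 1 library (circles Holstein, triangles Angus) and lines are geometric means of 8; the lines for the 3 chromosomes together lie at 1.11, 1.72 and 2.02.

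The higher level held over most of the bins rather than a few. Of the 173 complete bins, 149 (86.1%) lay above the median bin of the other autosomes, 135 CPM by the mean over libraries, and 4 (2.31%) lay below their 10th percentile. Above their 90th percentile, 473 CPM, lay 37 bins (21.4%), namely 10 of 66 on chromosome 18, 13 of 64 on chromosome 19 and 14 of 43 on chromosome 25. No bin passed their 99th percentile, which 24 of the 2328 others passed, so few would be expected among 173. The bins of the 3 chromosomes ran from 48.3 to 2278 CPM, and the others from 25.8 to 49038 CPM. A range widens with the number of bins, so the 2 ranges are not compared.

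The bins richest in reads were of different kinds. On chromosome 25 the highest bin, at 30 to 31 Mb, held 2278 ± 477 CPM (SD, n = 8), and its only named gene was AUTS2, a transcriptional regulator of neural development that covered 20.7% of the windows. It held 2882, 2622, 1915 and 2110 CPM in the Holstein libraries and 2328, 2067, 1491 and 2808 CPM in the Angus libraries. The libraries of both breeds overlapped, and Angus 3 was the lowest. This bin had 32 windows above 10 CPM, and its 5 highest windows took 25.7% of its reads.

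The next bins of chromosome 25 lay at its end. The bin at 41 to 42 Mb held 1386 ± 295 CPM, with 22 genes on 68.2% of its windows, among them GNA12, LFNG, MAD1L1 and MAFK. Its 5 highest windows took 3.78% of its reads, and its median window held 3.94 CPM, against 0.668 CPM in the bin of AUTS2. The last bin, at 42 to 43 Mb, held 1212 ± 194 CPM, 18.9% of it in 5 windows, with 25 genes, among them PDGFA, a growth factor for fibroblasts. The first bin of the chromosome held 1097 ± 201 CPM and the second 962 ± 171 CPM, so both ends of chromosome 25 were high.

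On chromosome 19 the highest bin was the first, with 1535 ± 347 CPM. Its reads were concentrated: 27 windows were above 10 CPM, while the median window held 0.157 CPM. The bin at 57 to 58 Mb held 1050 ± 197 CPM, with the CD300 receptors of myeloid cells among its 34 genes and 28.6% of its reads in 5 windows. The bin at 62 to 63 Mb, which holds AXIN2, a feedback inhibitor of Wnt signalling, had 765 ± 154 CPM with 9.91% of the reads in its 5 highest windows.

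On chromosome 18 the bin at 11 to 12 Mb, which holds IRF8, a transcription factor of myeloid cells, and COX4I1, a subunit of cytochrome c oxidase, had 1523 ± 281 CPM. Its 5 highest windows took 28.6% of the reads. The bin at 13 to 14 Mb held 730 ± 131 CPM, with 21 genes, among them CYBA of the phagocyte oxidase and PIEZO1, a mechanically gated channel, and no window above 10 CPM. The bin at 51 to 52 Mb held 648 ± 103 CPM, with 39 genes, and 40.4% of its reads lay in 5 windows.

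The bins poorest in reads were mostly poor in genes as well. On chromosome 18 they lay next to each other, at 27 to 30 Mb, with 59.8 ± 17.7, 52.5 ± 15.2 and 64.8 ± 19.5 CPM. Between them they held LOC781392, LOC100139919 and CDH8, a cadherin of the nervous system. On chromosome 19 they also adjoined, at 1 to 4 Mb, with 53.7 ± 17.0, 48.3 ± 15.0 and 68.4 ± 18.02 CPM, directly beside the first bin with its 1535 CPM. The first of these was not poor in gene cover, since CA10, a carbonic anhydrase relative expressed in brain, and 3 LOC genes named 55.4% of its windows.

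The poorest bins of chromosome 25 stayed nearer to the level of the other autosomes. They held 98.97 ± 26.8 CPM at 12 to 13 Mb (SHISA9 and ERCC4, a DNA repair nuclease), 120 ± 33.2 CPM at 23 to 24 Mb and 134 ± 33.8 CPM at 5 to 6 Mb. The last of these held a single gene, RBFOX1, a splicing factor of neurons and muscle, on 58.6% of its windows. Long genes that fill a bin did not always go with high counts, since the bin at 17 to 18 Mb of chromosome 19, with 92.8% of windows in 4 genes such as MYO1D, held 205 ± 47.4 CPM. The bin at 5 to 6 Mb of chromosome 18, with 90.4% of windows in 4 genes including the long tumour suppressor WWOX, held 500 ± 99.6 CPM.

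The other bins at the extremes of gene cover differed as widely. With 81.7% of windows in 57 genes, the bin at 56 to 57 Mb of chromosome 18 held 421 ± 79.6 CPM, and with 77.8% in 59 genes, among them EPO, erythropoietin, the bin at 36 to 37 Mb of chromosome 25 held 513 ± 92.5 CPM. The bin at 12 to 13 Mb of chromosome 19 (80.8%, 9 genes such as BCAS3 and USP32) held 131 ± 35.1 CPM and that at 29 to 30 Mb of chromosome 25 (78.4%, CALN1 and WBSCR17) 158 ± 39.03 CPM. Bins almost without genes held 301 ± 95.1 CPM at 32 to 33 Mb of chromosome 25 (0.601%), 212 ± 48.2 CPM at 60 to 61 Mb of chromosome 19 (1.20%) and 135 ± 36.3 CPM at 24 to 25 Mb of chromosome 25 (6.31%).

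**Figure D3:**
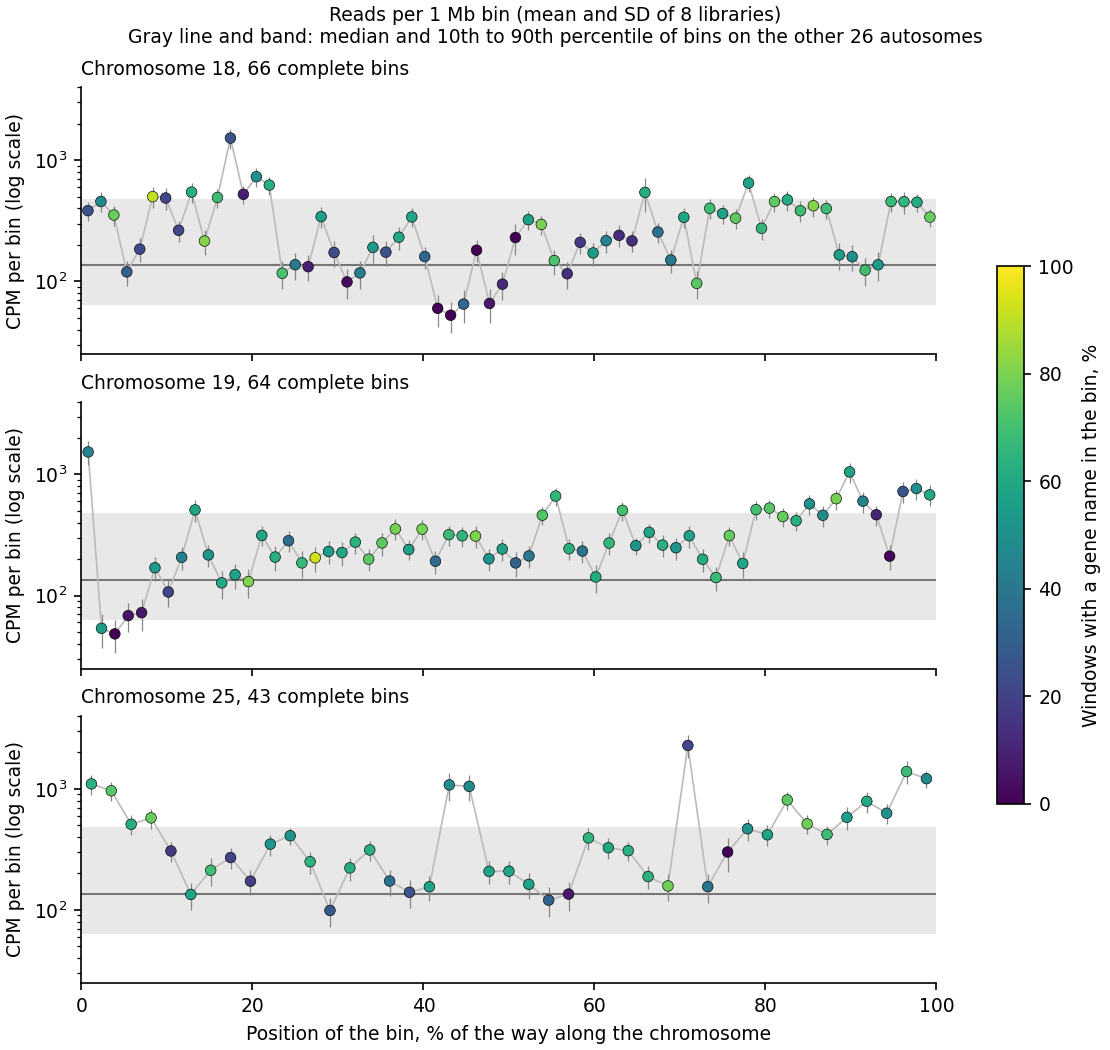
CPM per complete 1 Mb bin (log scale, mean and SD of 8 libraries) along chromosomes 18, 19 and 25, with the bin's place given as a percentage of the way along the chromosome and its color as the percentage of windows with a gene name. The gray line and band are the median (135 CPM) and the 10th to 90th percentile (64.5 to 473 CPM) of bins on the other 26 autosomes; most bins lie above the line, and both ends of chromosome 25 lie above the band.

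Gene cover alone did not give the level of a bin. Across the 173 bins, Pearson's r of gene share and CPM was 0.143 and Spearman's coefficient 0.324 by the mean of the libraries, and the latter lay between 0.313 and 0.334 in single libraries. Spearman's coefficient was 0.408 on chromosome 18, 0.213 on chromosome 19 and 0.272 on chromosome 25, and 0.336 over the 2328 other bins. These are descriptions, since neighboring bins share libraries, depth and base composition.

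Bins were next compared at like gene share. The median bin of the 3 chromosomes was above that of the other autosomes in each of 4 classes and in 8 of 8 libraries (exact sign-flip permutation test, adjusted p = 0.00781 over 4 classes). The ratio was 2.05-fold where under 25% of windows had a gene name (30 bins against 707) and 1.504-fold at 25 to under 50% (33 against 778). It was 1.70-fold at 50 to under 75% (91 against 702) and 2.31-fold at 75% and over (19 against 141). The higher level was thus not limited to bins with more gene cover.

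In CPM, the median bin of the 3 chromosomes rose from 184 ± 38.8 in the class under 25% to 214 ± 44.3, 312 ± 59.5 and 349 ± 66.2 in the following classes (mean and SD over 8 libraries). On the other autosomes the values were 91.1 ± 24.8, 143 ± 33.9, 185 ± 40.9 and 152 ± 35.5 CPM, with no rise from the third class to the last. The 6 bins of chromosome 19 under 25% had a median of 89.8 ± 23.5 CPM, within the spread of the other autosomes. At 25 to under 50%, the 13 bins of chromosome 18 had 164 ± 36.6 CPM and the 8 bins of chromosome 25 164 ± 41.4 CPM, nearer to the other autosomes than the 12 bins of chromosome 19 with 372 ± 72.3 CPM.

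By the mean of bins, the top class was at 1.83-fold (8 of 8 libraries, exact permutation test, adjusted p = 0.0312). The classes of 25 to under 50% (1.19-fold, 7 of 8 libraries) and 50 to under 75% (1.09-fold, 6 of 8 libraries) each had an adjusted p of 0.0521 in the permutation test. The class under 25% was at 0.920-fold (4 of 8 libraries, adjusted p = 0.297 by the permutation test) and changed direction with the measure.

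**Figure D4:**
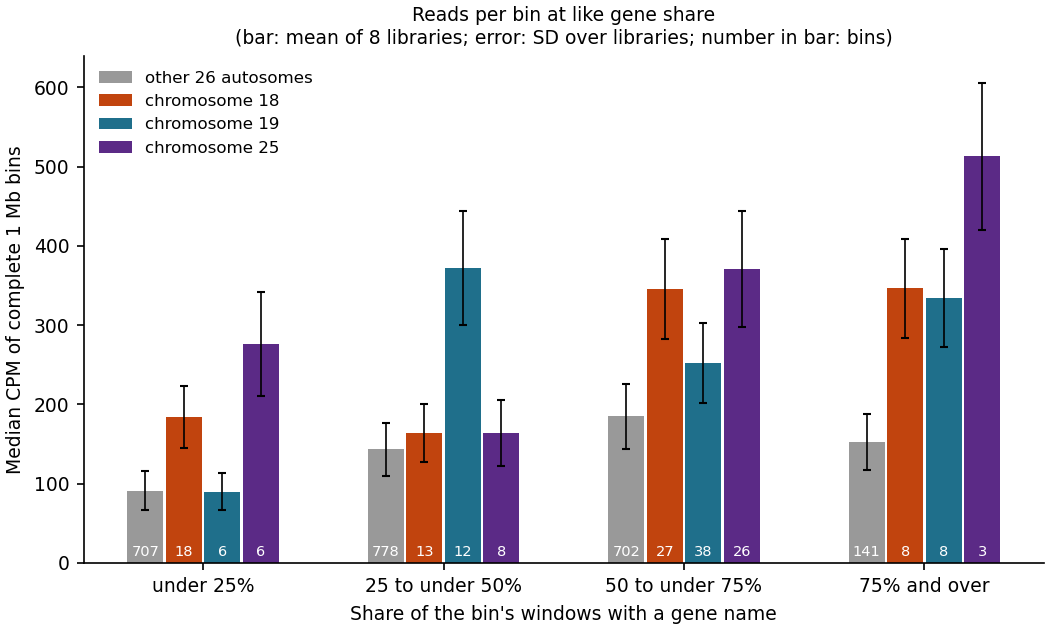
Median CPM of complete 1 Mb bins (y axis) by the share of the bin's windows with a gene name (x axis), for the other 26 autosomes (gray) and chromosomes 18, 19 and 25. Bars are means of 8 libraries, error bars are SDs over libraries and numbers in the bars are bins; in the class of 75% and over the other autosomes lie at 152 CPM and the 3 chromosomes at 334 to 513 CPM.

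Within the bins, the reads were then placed in windows with and without a gene. On the 3 chromosomes 29163 windows (50.6%) carried a gene name, against 39.2% elsewhere, and 23.2% held a coding exon, against 12.6%. Gene windows held 1.33-fold the reads of windows without a gene by the mean (1.18 to 1.43 over the libraries, 8 of 8 above 1, exact sign-flip permutation test, adjusted p = 0.00781). On the other autosomes they held 0.767-fold (0 of 8 above 1, same adjusted p in the permutation test). Without the 0.1% of windows with most reads the latter turned to 1.30-fold and the former became 1.40-fold, and by medians the values were 1.34- and 1.59-fold.

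The difference between the 3 chromosomes and the others in this ratio was 1.73-fold by the mean, in 8 of 8 libraries (exact permutation test, adjusted p = 0.00781). It shrank to 1.07-fold without the top windows (8 of 8 libraries) and to 1.19-fold by medians (7 of 8 libraries). Its size thus depended on 0.1% of the windows, which on the other autosomes took 35.8% of the reads.

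Windows with a coding exon were the richest class on each of the 3 chromosomes. Their mean was 2.16 ± 0.397 CPM on chromosome 25, 1.47 ± 0.252 CPM on chromosome 18 and 1.45 ± 0.256 CPM on chromosome 19, against 1.04 ± 0.180 CPM on the other autosomes (SD over 8 libraries). Windows of genes without a coding exon held 0.905 ± 0.176 CPM and windows without a gene 0.928 ± 0.153 CPM on the 3 chromosomes together. By medians, the order was 0.975 CPM for coding exons, 0.504 CPM for the rest of genes and 0.413 CPM outside genes. The share of windows with at least 1 CPM in at least 4 libraries was 51.2% for coding exons, 26.5% for the rest of genes and 19.3% outside genes, each above the 29.7, 12.2 and 8.37% of the other autosomes.

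First windows of genes, taken by strand to stand for the promoter, followed the same difference between chromosomes. The first window with a gene's name can lie past the start of the gene, as in CNTNAP1, where it is listed with coding exon 4. How often this occurs on each chromosome was not counted, so the values below describe first named windows. Over the 3358 genes of the 3 chromosomes they held 1.01 ± 0.184 CPM by the mean, 1.22-fold of the first windows of other autosomes (1.18 to 1.26 over the libraries, 8 of 8 above 1, exact permutation p = 0.00781). The first windows of chromosome 25 held 1.35 ± 0.247 CPM, those of chromosome 18 0.925 ± 0.171 CPM and those of chromosome 19 0.912 ± 0.168 CPM. Set against the mean of the other windows of its gene, the first window was lower in all 8 libraries for 1536 of the 2841 genes with more than 1 window (54.1%), and in none for 424 genes (14.9%). Window levels are skewed, with a median of 0.514 and a mean of 1.08 CPM on the 3 chromosomes, so a single window often lies below such a mean. No other window position was compared in this way, so nothing about promoters is read from these counts.

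Over the 16 listed tumour suppressor and signalling genes, the median first window held 0.616 CPM, against 0.573 CPM over all 3358 genes. Of the 16, 8 were above the latter value, and CREBBP and BRCA1 were among those below it. CREBBP, a histone acetyltransferase, had 0.110 ± 0.0799 CPM in its first window and 1.67 CPM in its other windows, and the DNA repair gene BRCA1 0.0529 ± 0.0468 and 0.302 CPM. Both were lower in the first window in 8 of 8 libraries. The mean of BRCA1 there was below the lowest floor of 3 reads (0.0844 CPM), so a level there was not detectable at this depth.

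Others of this list were among the richest genes of the 3 chromosomes. TSC2, an inhibitor of mTOR signalling, held 5.51 ± 1.01 CPM per window and AXIN1, a scaffold of the complex that degrades beta-catenin, 5.20 ± 1.03 CPM, both above the 98th percentile of the 3358 genes, whose median was 1.03 CPM. Both lie in the first 2 Mb of chromosome 25. MC1R, the melanocortin receptor that sets coat color, held 3.81 ± 0.674 CPM in its single window on chromosome 18, with 4.01 CPM in Holstein and 3.62 CPM in Angus. Of the 16 genes of the list with a window, 11 were above the median gene, and ERBB2, also on it, carried no window. SOX9 of the next list carried none either.

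Genes of the fibroblast matrix and cytoskeleton ran from 0.358 to 2.06 CPM per window with a median of 0.903 CPM. Of these 10 genes, 4 were above the median gene of the 3 chromosomes. COL1A1, the main collagen chain of skin, held 0.417 ± 0.126 CPM per window and 0.210 ± 0.107 CPM in its first window. ACTG1 held 0.438 ± 0.119 CPM and ACTB 0.763 ± 0.259 CPM, and like COL1A1 both were below the median gene. TGFB1, a growth factor that drives matrix production, had 0.200 ± 0.0889 CPM in its first window and 1.05 CPM in the others. The first window was the lower in 8 of 8 libraries for TGFB1, COL1A1, ACTB, ACTG1, MMP2, TIMP2, ELN and FOXF1.

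The gene families, most of them on chromosome 19, spread widely. Among 26 type I keratins, 10 were above the median gene: KRT17 led with 3.36 ± 0.426 CPM and KRT14, a keratin of basal epidermis, held 2.07 ± 0.398 CPM, whereas KRT10 of the upper epidermis held 0.414 ± 0.117 CPM and KRT222 0.176 ± 0.0888 CPM. Of the 7 keratin-associated protein genes of hair, 2 were above it, and of 6 striated myosin heavy chains 1, the embryonic MYH3 (2.36 ± 0.398 CPM). Among 6 HOXB genes, which set position along the body, HOXB1 had 2.51 ± 0.741 CPM and HOXB2 0.230 ± 0.110 CPM. The 13 CC chemokines, attractants of leukocytes with members on all 3 chromosomes, ran from 0.244 CPM (CCL8) to 1.52 CPM (CCL24), with 3 above the median gene, and GH1, growth hormone, held 1.32 ± 0.303 CPM.

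On chromosome 18, PEG3, a zinc finger gene that is imprinted and expressed from the paternal copy, had 6.31 ± 1.36 CPM per window over 5 windows (4.71 to 8.87 over the libraries), at the 99th percentile of the 3358 genes. Its first window held 7.35 ± 1.71 CPM. The zinc finger genes, of which 134 carried windows on the 3 chromosomes, ran from 0.107 to 7.06 CPM with a median of 0.553 CPM, and 47 were above the median gene. The highest of them was ZNF319 with 7.06 ± 0.894 CPM. The metallothioneins, which bind zinc and copper, were all 5 below it, from 0.552 CPM (MT1A) to 0.947 CPM (MT1E). Of the 13 kallikreins, serine proteases of skin and glands, 8 were above it, led by KLK6 with 1.75 ± 0.394 CPM.

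The SIGLEC and CEACAM genes, which encode surface receptors of immune and epithelial cells, had 6 of 8 above the median gene, from 0.768 CPM (CEACAM1) to 1.77 CPM (SIGLEC8). Of the 5 carboxylesterases 1 was above it (CES3, 1.11 ± 0.246 CPM). On chromosome 25 the alpha globin genes ran from 0.211 ± 0.173 CPM (HBA) to 1.16 ± 0.222 CPM (HBM), with 1 of 5 above it. The interleukin genes of that chromosome held 1.30 ± 0.265 CPM for the receptor chain IL4R, 1.09 ± 0.224 CPM for IL21R and 0.886 ± 0.243 CPM for IL27. Of the 57651 windows of the 3 chromosomes, 57535 are exactly 3Kb long, so these levels per window can be compared between genes, though not apart from CpG content.

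Windows far above the rest were few and lay together. On the 3 chromosomes 220 windows (0.382%) exceeded 10 CPM by the mean, taking 16.4% of the reads, and 75 of them carried a gene name. Elsewhere 0.351% of autosomal windows exceeded it and took 48.3% of the reads. Of the 220 windows, 115 lay in 6 bins with at least 10 each: 32 at 30 to 31 Mb, 18 at 18 to 19 Mb and 13 at 19 to 20 Mb of chromosome 25, 27 at 0 to 1 Mb and 12 at 57 to 58 Mb of chromosome 19, and 13 at 11 to 12 Mb of chromosome 18.

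The highest windows of each chromosome carried no gene name. They were chr18:51417398-51420397 with 126 CPM, chr19:6875-9874 with 155 CPM and, on chromosome 25, a window that starts at 42903301, with 175 CPM. The listed end of that window lies before its start, so what it covers is not clear. The next on chromosome 25 was chr25:30311801-30314800, with 4226, 3844, 3597 and 5188 reads in the Holstein libraries and 4356, 3558, 3618 and 3197 reads in the Angus libraries. Its highest coverage at a base was 2348 to 3579 reads against a mean over the window of 96.6 to 156, so that its reads were stacked. The breeds overlapped there, with 166 ± 34.5 CPM in Holstein and 142 ± 23.8 CPM in Angus (SD, n = 4).

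The names of ribosomal RNA genes stood in the bin at 32 to 33 Mb of chromosome 25, the bin with the least gene cover on that chromosome (0.601% of windows). The window of RN18S1 held 0 reads in all 8 libraries, which allows up to 3 reads per library. The window of RN5-8S1 held 5, 87, 44 and 226 reads in the Holstein libraries and 214, 74, 48 and 204 reads in the Angus libraries, and Holstein 1 was far below the rest. Another window of this bin, without a gene name, chr25:32361101-32364100, held 236, 1947, 906 and 2064 reads in Holstein and 2247, 1113, 660 and 1861 reads in Angus. Reads of repeated genes depend on how reads that match several places were counted, which is not given in the sources used here.

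Between the breeds, the share of autosomal reads on the 3 chromosomes did not differ beyond the spread of the animals. It was 6.72, 8.28, 7.72 and 8.45% in the Holstein libraries and 7.60, 7.83, 5.71 and 8.23% in the Angus libraries, with Holstein 1 and Angus 3 lowest and the breeds overlapping. The means were 7.79 ± 0.783% and 7.34 ± 1.12% (SD, n = 4), a difference of 0.451 percentage points (exact two-sided permutation test, 4 against 4, p = 0.543; adjusted p = 0.629 over 4 comparisons), and the smallest p this design allows is 0.0286. The direction turned without Angus 3 (a difference of -0.0928). Without the 0.1% of windows with most reads the shares drew together, at 11.2 ± 0.285% and 11.1 ± 0.549%.

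No 1 Mb bin of the 3 chromosomes was called between breeds. In edgeR's quasi-likelihood test over 2678 bins, at an FDR under 0.1, 0 of 175 were called, where the background over all bins was 0.0373% (1 bin). An unadjusted p under 0.05 was reached by 4 of the 175, and edgeR's likelihood-ratio test and DESeq2 called 0 as well. The median log2 fold change of Holstein over Angus was 0.01, and the bins ran from -0.41 to 0.57 with a median standard error of 0.10.

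The bin at 61 to 62 Mb of chromosome 18 was the only one of the 175 to be called under any alternative. This stretch of 38 genes holds the zinc finger gene ZNF331, the inflammasome gene NLRP12 and the microRNA gene MIR292. It was called with a replicate block (log2 fold change 0.23, edgeR FDR 0.0557) and without Holstein 1 and Angus 3, a choice made after seeing the data (0.25, edgeR FDR 0.00124). With all libraries and no block its log2 fold change was 0.23 ± 0.07 (SE) at an edgeR FDR of 1.00. The block called 11 of 2678 bins (0.411%) and the fit without these 2 libraries 33 (1.23%), so more bins were called everywhere. The CPM of the bin at 61 to 62 Mb was 101, 185, 173 and 162 in the Holstein libraries and 134, 146, 80.0 and 114 in the Angus libraries, and the breeds overlapped before scaling.

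At the level of 3Kb windows, 19 of the 16535 member windows that passed the CPM filter (at least 1 CPM in at least 4 libraries) were differentially methylated regions (DMR), defined by edgeR's likelihood-ratio test as FDR < 0.1 and a fold change of at least 2. This was 0.115%, where the background over all 110561 tested autosomal windows was 0.0923% and over all 115360 tested windows 0.231%, and 0.0883% on the other autosomes (83 of 94026). Higher in Holstein were 11 (background 0.0326%) and higher in Angus 8 (background 0.0597%). On the other autosomes 25 were higher in Holstein and 58 in Angus. Whether the split by direction differs between the chromosomes was not tested. Chromosome 18 had 6 DMRs of 5663 windows tested, chromosome 19 had 7 of 6284 and chromosome 25 had 6 of 4588. The breeds did not overlap in CPM in 12 of the 19, against 1.18% of all tested autosomal windows, but these windows were called for a breed difference and nothing is read from that count. Overlap, here and below, was judged on CPM before the TMM scaling that the test uses. The TMM factors ran from 0.677 in Angus 3 to 1.22 in Holstein 4, so overlap can differ after scaling.

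The other tests called fewer. The quasi-likelihood test kept 13 of the 19 and DESeq2 11, and 5 of the 19 were called under every alternative in which they were tested. These 5 were LOC100848332 and a window without a gene on chromosome 18, a KRTAP9-2 window and a window without a gene on chromosome 19, and a window without a gene on chromosome 25. The windows without a gene on chromosomes 19 and 25 were tested in only 12 of 16 alternatives, since they missed the CPM filter in the rest. Their Angus means were 0.574 and 0.449 CPM. The other 14 were each lost under at least 1 alternative.

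HIC1, a transcriptional repressor first described as hypermethylated in cancer, had the largest difference of a named gene with a known product. Both of its windows on chromosome 19 were DMRs and were higher in Angus. Its first window, chr19:23655275-23658274 with coding exon 1, held 0.405, 0.519, 1.89 and 0.788 CPM in the Holstein libraries and 2.34, 2.16, 1.91 and 5.24 CPM in the Angus libraries. The breeds did not overlap, although Holstein 3 nearly reached Angus 3. The log2 fold change of Holstein over Angus was -1.76 ± 0.29 (SE, edgeR likelihood-ratio FDR 7.61e-06; DESeq2 FDR 0.192), and -2.37 to -1.48 with any 1 animal left out.

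The second window of HIC1, chr19:23658275-23661274 with coding exon 2, held 1.73 ± 1.02 CPM in Holstein and 4.16 ± 1.28 CPM in Angus (SD, n = 4). Its log2 fold change was -1.38 ± 0.23 (edgeR FDR 7.61e-06; DESeq2 FDR 0.103), again with no overlap. The windows on either side did not share the difference. The last window before HIC1 held 0.293 CPM in Holstein and 0.271 CPM in Angus, and the first window after it, in SMG6, 1.75 and 2.22 CPM (log2 fold change -0.38, FDR 1.00). DPH1, whose windows lie before HIC1, had log2 fold changes between -0.10 and 0.31.

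AXIN2 moved the other way. Its first window, chr19:62858675-62861674 with coding exon 1, held 1.77, 2.51, 2.04 and 2.48 CPM in the Holstein libraries and 0.733, 1.36, 0.806 and 0.428 CPM in the Angus libraries, with no overlap. The log2 fold change was 1.19 ± 0.22 (edgeR FDR 0.000154; quasi-likelihood FDR 0.0268; DESeq2 FDR 0.00222). In each of the 9 windows of AXIN2 the Holstein mean was above the Angus mean, with 3.53 against 2.50 CPM per window over the gene, but the other 8 windows were no DMRs. Those starting at 62855675 and 62846675 passed the FDR (0.0337 and 0.0432, edgeR) with log2 fold changes of 0.97 and 0.75, short of the fold minimum. Without Angus 4, the lowest library of the first window, its log2 fold change was 0.95 and it was not called.

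BCAR1, a scaffold protein of focal adhesions in integrin signalling, had 1 DMR among 14 windows, chr18:2636198-2639197, the sixth window by strand and without a coding exon. It held 1.97, 2.34, 2.04 and 3.32 CPM in the Holstein libraries and 0.558, 1.29, 0.907 and 1.498 CPM in the Angus libraries. The breeds did not overlap, and the log2 fold change was 1.08 ± 0.21 (edgeR FDR 0.000412; DESeq2 FDR 0.00429). Another window of the gene, which begins at 2621198, was higher in Holstein with a log2 fold change of 0.71 (edgeR FDR 0.0586), short of the fold minimum.

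KRTAP9-2, a keratin-associated protein gene of hair, had 2 DMRs in its 5 windows, both higher in Holstein and both without a coding exon. The window chr19:42109475-42112474 held 1.11, 3.20, 2.16 and 2.31 CPM in the Holstein libraries and 0.838, 0.765, 0.638 and 1.28 CPM in the Angus libraries. Before TMM scaling only Holstein 1 fell into the range of Angus. Its log2 fold change was 1.20 ± 0.23 (edgeR FDR 0.000216; DESeq2 FDR 0.00232). The window at 42103475 had 1.09 ± 0.29 (edgeR FDR 0.0542) and was not called by DESeq2 (FDR 1.00). The window between them had 0.79 (edgeR FDR 0.0527) and missed the fold minimum. Members of this family are near copies of each other, so reads could be shared between them.

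CNTNAP1, a membrane protein of the junctions between axons and glia, had a DMR in the first window that carries its name, chr19:43381475-43384474, listed with coding exon 4. Holstein libraries averaged 1.08 ± 0.257 CPM there and Angus libraries 2.26 ± 0.753 CPM, without overlap and at a log2 fold change of -1.19 ± 0.21 (edgeR FDR 6.35e-05; DESeq2 FDR 0.000581). The other 4 windows of the gene had log2 fold changes between -0.11 and 0.14 (edgeR FDR 1.00). MAD1L1, a protein of the spindle checkpoint, had 1 DMR among 81 windows, at 2.13 ± 0.947 CPM in the Holstein and 3.904 ± 0.762 CPM in the Angus libraries, for a log2 fold change of -1.06 ± 0.22 (edgeR FDR 0.00225; DESeq2 FDR 0.390) and overlap between the breeds.

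The largest difference of all 19 lay outside genes, at chr18:33452798-33455797. This window held 16.0, 43.2, 42.8 and 43.5 CPM in the Holstein libraries and 10.9, 7.997, 4.57 and 14.8 CPM in the Angus libraries. Holstein 1 lay close to Angus 4 and far below the other 3 Holstein libraries, but the breeds did not overlap. The log2 fold change was 1.81 ± 0.33 (edgeR FDR 8.07e-05; DESeq2 FDR 1.22e-05) and it lay between 1.67 and 1.99 with any 1 animal left out. Of 4 tested windows within 30 kb, 2 had the same direction and none was a DMR.

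On chromosome 25 the DMRs formed a run. Between 27254601 and 27281600, over 27 kb, 9 windows followed each other, 8 were tested, all 8 had a higher level in Holstein, and 5 were DMRs. The most even of them, chr25:27266601-27269600, held 1.26, 1.21, 1.29 and 1.21 CPM in the Holstein libraries and 0.593, 0.417, 0.302 and 0.482 CPM in the Angus libraries. The Holstein libraries were nearly equal and every one was above every Angus library. Its log2 fold change was 1.31 ± 0.27 (edgeR FDR 0.0015; DESeq2 FDR 0.0277).

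The first DMR of the run carried LOC100300862, with 5.21, 4.54, 6.13 and 3.57 CPM in the Holstein libraries and 1.33, 1.56, 1.07 and 4.82 CPM in the Angus libraries. Angus 4 lay within the range of Holstein while the other 3 Angus libraries lay far below. Its log2 fold change was 1.15 ± 0.27 (edgeR FDR 0.00933; quasi-likelihood FDR 0.103; DESeq2 FDR 1.00). The other 3 DMRs of the run, without a gene, had log2 fold changes of 1.00, 1.05 and 1.05, and the windows just past it, with 0.290 and 0.224 CPM in Holstein, were too low to be tested. Adjoining windows share fragments and local base composition, so the run is not 5 independent differences. The run was also bounded by DMRs that were higher in Holstein, so nothing is read from the shared direction of its windows.

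A window outside genes on chromosome 19, chr19:42556475-42559474, was higher in Holstein, with 1.496 ± 0.308 against 0.574 ± 0.117 CPM and no overlap (log2 fold change 1.23 ± 0.23, edgeR FDR 0.000154; DESeq2 FDR 0.0104).

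The remaining 4 DMRs lay on chromosome 18 toward its end and were higher in Angus. LOC100848332 averaged 1.33 ± 0.463 CPM in the Holstein and 3.19 ± 1.63 CPM in the Angus libraries (log2 fold change -1.35 ± 0.22, edgeR FDR 1.04e-05; DESeq2 FDR 3.16e-05). LOC783134 and LOC783096, close neighbors, had log2 fold changes of -1.78 ± 0.30 (edgeR FDR 1.4e-05) and -1.003 ± 0.26 (edgeR FDR 0.0413), and neither passed in DESeq2 (FDR 0.118 and 1.00). LOC783134 had only 2, 8, 21 and 32 reads in the Holstein libraries, against 36, 87, 30 and 35 reads in the Angus libraries. The window outside genes at chr18:59107198-59110197 had a log2 fold change of -1.11 ± 0.30 (edgeR FDR 0.0701), overlapped between breeds and was not called by the quasi-likelihood test (FDR 0.316) or DESeq2 (FDR 1.00).

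**Figure D5:**
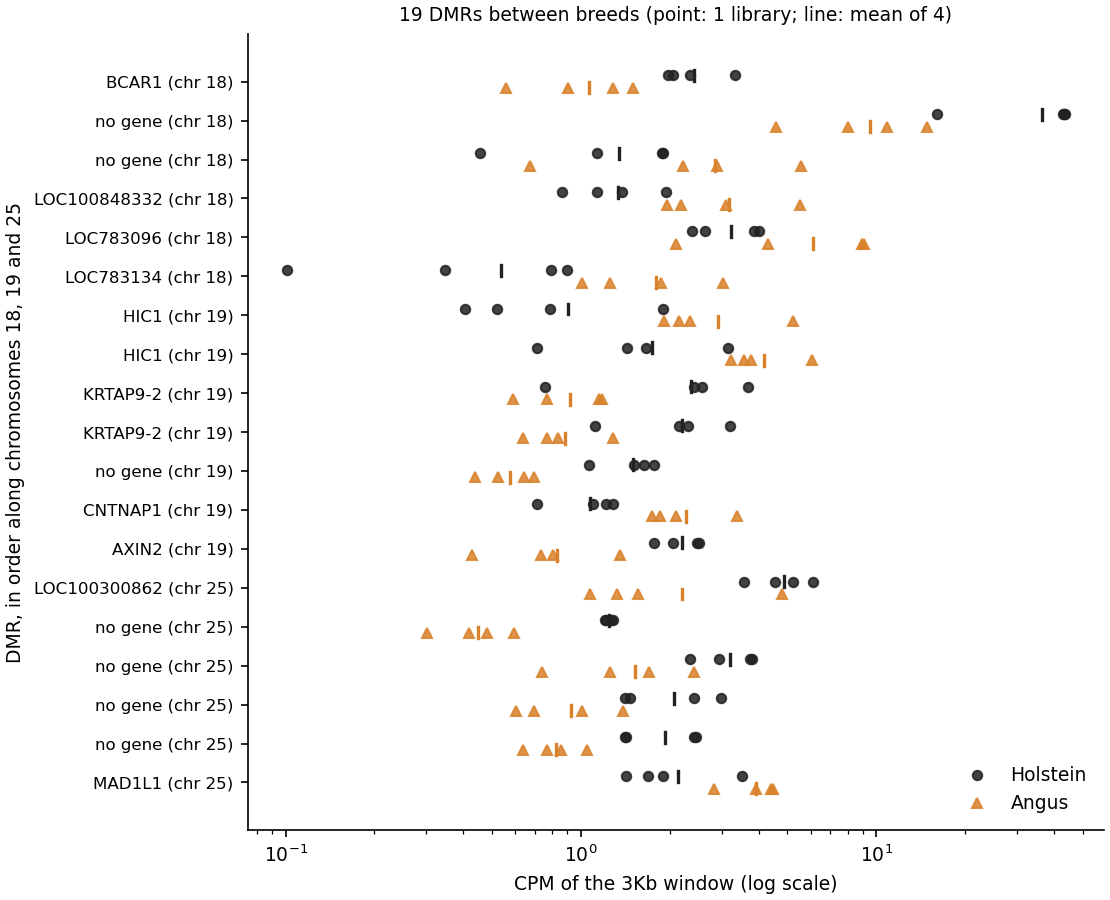
CPM (log scale) of the 19 windows of chromosomes 18, 19 and 25 called between breeds, in order along the chromosomes. Each point is 1 library (circles Holstein, triangles Angus) and each line the mean of 4. Before TMM scaling the breeds do not overlap in 12 windows (against 1.18% of all tested autosomal windows, but the 19 were called for a breed difference). The 5 windows from LOC100300862 on chromosome 25 onward are higher in Holstein.

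Among the listed gene groups, DMRs fell in 2: the keratin-associated proteins, with 2 in 6 tested windows, both in KRTAP9-2, and the tumour suppressor and signalling genes, with 3 in 89, in HIC1 and AXIN2. The type I keratins (32 tested windows), kallikreins (22), SIGLEC and CEACAM genes (21), fibroblast matrix and cytoskeleton genes (26) and zinc finger genes (265) had 0. Beside a background of 0.0923%, nothing is read from these zeros or from the 2 and 3.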

How the data were processed

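DNA methylation was measured by MIRA-Seq in 8 libraries, 1 per animal. Per the study's methods and the file headers, the authors called bases with CASAVA 1.7 (named in the submitters' processing notes), aligned reads to UMD v3.1 with NextGENe 2.3.4 and deposited raw read counts per 3Kb window, with a gene name and coding exon where one overlaps. The deposited coverage signal per window (highest and mean) was used for description only. How reads matching several places were counted is not given in the sources used here.

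Windows were summed in 1 Mb bins with Python 3.11.15 (numpy 2.4.6, pandas 2.3.3, scipy 1.17.1, matplotlib 3.10.9). CPM used totals over all 902984 windows. Levels were compared per library with exact sign-flip permutation tests over 8 libraries and breeds with exact permutation tests of 4 against 4, all two-sided, with Benjamini-Hochberg adjustment. Windows with at least 1 CPM in at least 4 libraries went into the likelihood-ratio test of edgeR 4.0.16 under R 4.3.3, with TMM scaling, and 1 Mb bins with its quasi-likelihood test. Calls needed FDR < 0.1 and, for windows, a fold change of at least 2. DESeq2 1.42.0 was an alternative. Scripts were tested on simulated counts. Libraries held 18691111 to 35525554 reads in windows, so that 3 reads equal 0.0844 to 0.161 CPM.

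The chromosomes, gene lists and tests were chosen with earlier results of these data known. Bins named were the 3 highest and lowest by CPM and those with most and least gene cover on each chromosome, and windows named were the DMRs and the 3 highest per chromosome. The bin starting at 61 Mb of chromosome 18 was named from the breed tests. Bins and genes beyond these were named from their place beside them or from the gene lists. Per-bin CpG content was not computed, as no UMD v3.1 genome was used here, and no input library was analysed.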

Additional observations from a re-analysis of the deposited data

Results flagged for a closer look

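In 8 of 88 groups of 4 libraries, 1 library lay far from the other 3 (by Dixon's ratio at its 95% critical value, which chance passes in about 1 in 20 groups). Angus 3 was the low library in the level of chromosome 18 against the other autosomes (0.705-fold), in the share of autosomal reads on that chromosome (1.86%) and in the ratio of gene windows to windows without a gene on the other autosomes (0.575-fold). In that ratio on the 3 chromosomes, the low library was Angus 1 (1.20-fold).

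Single windows made up the other 4. In the window without a gene at 33452798 of chromosome 18, Holstein 1 was the low library with 16.03 CPM. In the first window of HIC1, starting at 23655275 of chromosome 19, Angus 4 was the high library with 5.24 CPM. In the window of LOC100300862, starting at 27254601 of chromosome 25, Angus 4 was high with 4.82 CPM. In the window starting at 45875 of chromosome 19, one of the 3 highest of that chromosome, Holstein 3 was low with 60.5 CPM.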

How the results depend on the processing

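Level by the median of bins was 2.02-fold for the 3 chromosomes, 1.90 for 18 and 1.94 for 19, and 2.05, 1.504 and 1.70 in the 3 lower gene-share classes. Without the 0.1% of windows with most reads these were 1.72, 1.46, 1.63, 1.78, 1.88 and 1.40. Chromosome 18 and the class under 25% thereby changed direction, as did gene windows against others on the other autosomes (1.34 by medians, 1.30 without top windows). With all bins as CPM per window the 3 chromosomes stood at 1.32. Partial bins, 2 on the 3 chromosomes and 26 on the others, then weighed as much as complete ones. The partial bin of chromosome 18 held a window above 10 CPM, and its part in this value was not tested. Leaving out Holstein 1 and Angus 3, an alternative chosen after seeing the data, gave 1.19, 1.01, 1.12, 1.01, 1.275 and 1.13 in the same order.

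Leaving out 1 animal gave 1.09 to 1.16 for the 3 chromosomes, 1.17 to 1.26 at 25 to under 50%, 1.07 to 1.11 at 50 to under 75% and 1.81 to 1.85 at 75% and over. The first 3 passed the test without Angus 3. At 75% and over, 7 libraries left an adjusted p of 0.0625 in 7 of 8 cases. The breed difference in read share ranged from -0.0928 to 0.810 for the 3 chromosomes, -0.0128 to 0.303 for 18, -0.0460 to 0.294 for 19 and -0.0340 to 0.284 for 25, negative without Angus 3.

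The 19 DMRs became 11 with DESeq2 (2 higher in Angus), 62 without the CPM filter (37 higher in Holstein, 25 in Angus) and 34 without Holstein 1 and Angus 3 (20 and 14). The quasi-likelihood test gave 7 higher in Holstein and leaving out 1 animal 5 to 16. Total counts moved the median log2 fold change of autosomal windows to 0.14. Replicate numbers did not pair the animals (correlations of window deviations -0.20, 0.03, -0.01 and 0.11). A replicate block gave 22 DMRs and 1 of 175 bins, as did leaving out Holstein 1 and Angus 3 for bins (1). The exact paired sign-flip permutation test of the read share gave p = 0.625, and 4 pairs allow no p below 0.125. The cause of these shifts was not tested.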
